A study of Mus musculus with 10 samples.

Results

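The 9 genes described here encode transient receptor potential (TRP) channels of sensory neurons: Trpv1, Trpv2, Trpa1, Trpm8, Trpm2, Trpm3, Trpm4, Trpm7 and Trpc1. They are picked out of the table by gene symbol, with no measured value in the rule, and all 9 were found among the 23923 genes of the count table and were tested. The samples were dorsal root ganglia of mice at an age of 1 month, the clusters of sensory neuron cell bodies beside the spinal cord, and polyadenylated RNA was sequenced. The genotype was Kif2a fl/fl; Avil cre in 5 samples, named Kif2a_cKO here, and Kif2a fl/fl in the other 5, named control and titled WT in the labels. Both groups therefore carried the floxed allele of Kif2a, a kinesin that takes microtubules apart, and cre was present in 1 group, so cre and deletion cannot be told apart. Avil is active in sensory neurons, while the counts cover every cell of the ganglion, glia included. Whether each sample came from its own animal is not stated, so the p-values reflect the spread among these samples, which may be technical.

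TRP channels are cation channels of the cell membrane that open to temperature, irritants or signals inside the cell, and so depolarise the endings of sensory neurons. Trpv1 opens to heat and capsaicin, Trpa1 to electrophilic irritants, Trpm8 to cold and menthol, and Trpm3 to heat and neurosteroids. In mice, heat sensing by nociceptors draws on Trpv1, Trpa1 and Trpm3 together, and the transcription factor Runx1 is needed for the expression of several of these channels.

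Promoter sequences of 300 bases are shown for 3 members, from RefSeq (GRCm38.p6, 5′ to 3′, all on the plus strand). Trpv1 and Trpv2 are shown because they were the most abundant members per exon length, and Trpm3 because its between-library course ran opposite to that of Trpv2. Capitals mark TGTGGT, the core letters that RUNX factors bind, searched on both strands.
Trpv1, chr11:73233899-73234198: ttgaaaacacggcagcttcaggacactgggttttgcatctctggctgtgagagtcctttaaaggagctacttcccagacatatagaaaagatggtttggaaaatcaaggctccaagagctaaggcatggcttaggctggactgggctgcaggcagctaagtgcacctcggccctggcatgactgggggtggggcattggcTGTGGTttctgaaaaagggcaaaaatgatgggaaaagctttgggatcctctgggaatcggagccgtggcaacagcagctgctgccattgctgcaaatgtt
Trpv2, chr11:62574236-62574535: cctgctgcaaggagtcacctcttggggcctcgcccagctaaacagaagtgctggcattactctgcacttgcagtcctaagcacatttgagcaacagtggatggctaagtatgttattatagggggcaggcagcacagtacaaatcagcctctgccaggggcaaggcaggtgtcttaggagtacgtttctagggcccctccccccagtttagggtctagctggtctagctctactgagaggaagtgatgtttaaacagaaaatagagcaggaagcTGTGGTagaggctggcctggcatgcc
Trpm3, chr19:22138796-22139095: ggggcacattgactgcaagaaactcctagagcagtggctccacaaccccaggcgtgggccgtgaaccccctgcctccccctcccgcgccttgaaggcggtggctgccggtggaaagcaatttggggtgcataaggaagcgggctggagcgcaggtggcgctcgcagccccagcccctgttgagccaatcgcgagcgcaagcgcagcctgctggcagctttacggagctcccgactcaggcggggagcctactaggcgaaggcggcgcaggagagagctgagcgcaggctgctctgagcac
The match lay at bases 201 to 206 of the Trpv1 sequence and at bases 275 to 280 of the Trpv2 sequence, and the Trpm3 sequence shown held none. The table has 10 promoter entries for 7 of the members, and 4 of these 10 held TGTGGT or its reverse complement ACCACA, against 16.8% of all 32851 promoters of this length. The 4 entries belong to 3 of the 7 members: Trpv1, Trpv2 (entries 1 and 2) and, in an entry not shown, Trpm3. Entries of the same gene can cover the same bases, and whether both Trpv2 matches are the same site was not examined. So few entries do not allow a comparison with the share of all promoters. The GC box, GGGCGG or its reverse complement CCGCCC, was found in 2 of the 10 entries, those of Trpm2 and Trpc1, and in 35.7% of all promoters. The 2 motifs share no letters in these matches, and a match describes the letters only. GC content was 51.7% for Trpv1, 53.0% for Trpv2 and 66.7% for Trpm3.

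Library totals ran from 28686616 to 73031457 counts in Kif2a_cKO and from 17506135 to 34500320 in controls. Levels are given in CPM, counts per 1e6 after TMM scaling of each library. Every one of 15 pan-neuronal markers was detected, and their summed level was 21355 to 25554 CPM in Kif2a_cKO and 16055 to 24157 CPM in controls. The level of Kif2a was 69.0 ± 4.44 CPM in Kif2a_cKO and 70.2 ± 8.61 CPM in control libraries (SD, n = 5 each), a count over all exons and cells that does not check the deletion. Avil, whose gene drives cre, stood at 383 ± 55.0 CPM in Kif2a_cKO and 678 ± 149 CPM among controls (SD over 5 libraries each). That difference passed in DESeq2 (adjusted p = 0.000195) and limma-voom (0.0301) and did not in edgeR (0.351). Spinal cord markers differed between libraries within both groups: their mean log2 CPM was 0.59 to 3.65 in Kif2a_cKO, and 4.84, 6.56 and 5.10 in controls 1, 3 and 5 against 1.05 and 1.199 in controls 2 and 4. Control 3, the highest of the 10, also had the lowest pan-neuronal mean, 9.27 log2 CPM against 9.50 to 9.80 in Kif2a_cKO. The log2 fold change of each channel is therefore also given without controls 1, 3 and 5.

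None of the 9 TRP channel genes was called between the groups. edgeR's quasi-likelihood test, adjusted by Benjamini-Hochberg over 17439 genes with a threshold of 0.05, called 0 of 9, against 0.0172% of all tested genes. DESeq2 and limma-voom also called 0 of 9, against 0.184% and 0.0229% of tested genes. At an unadjusted p under 0.05 edgeR had 1 of 9 members, Trpm3 on the lower side, where 4.01% of all genes lay. Of the 9 members 5 had a log2 fold change (Kif2a_cKO over control) above 0 and 4 below, with a median of 0.018, and the median over all tested genes was 0.0073. No member had groups without overlap in CPM, which 1.17% of tested genes had. In the authors' deposited table, 31 genes carry the flag for passing their thresholds and 0 members do. In bulk tissue, fewer cells of a type and less RNA per cell cannot be told apart.

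**Figure D1:**
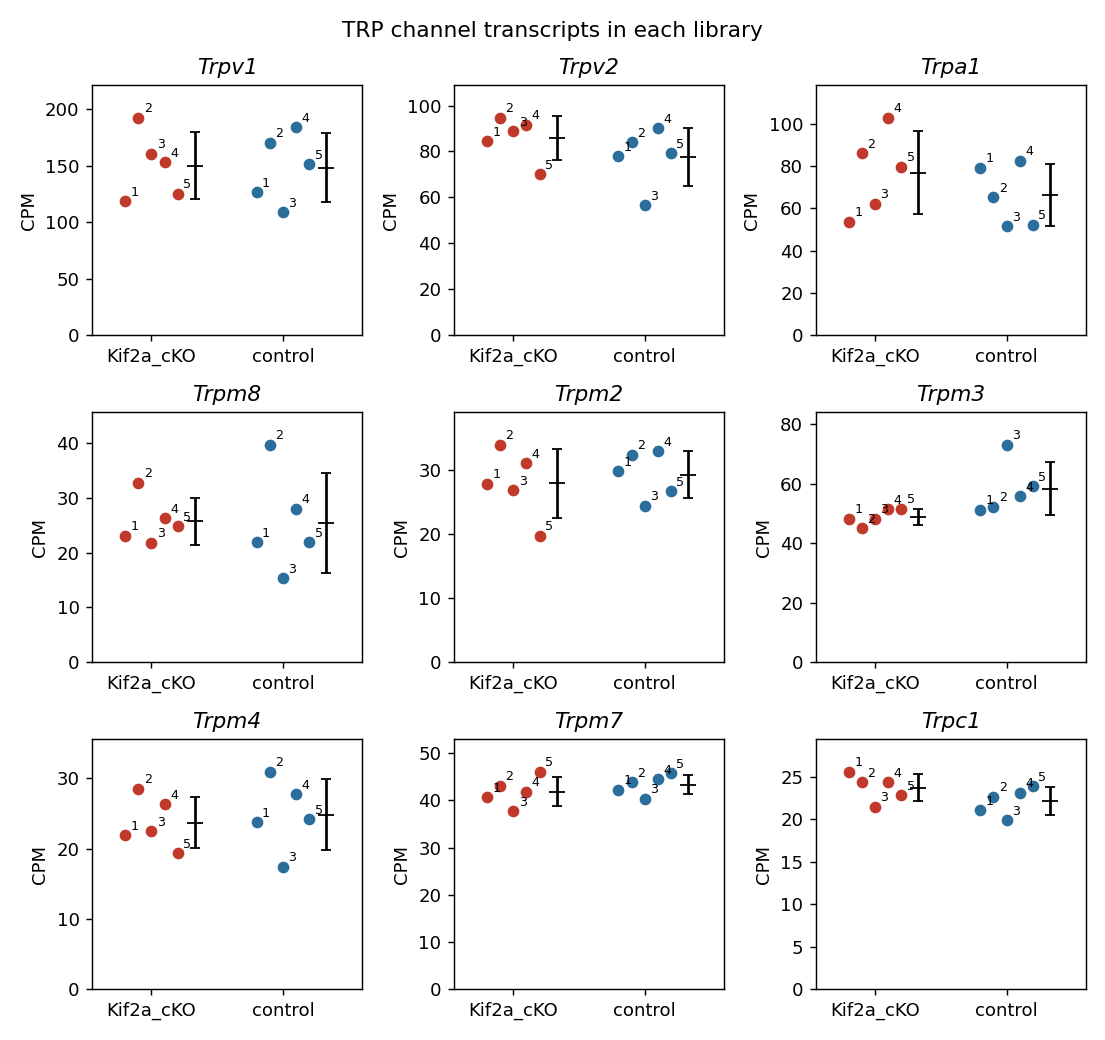
CPM of each TRP channel gene in each library, with Kif2a_cKO left of control and points labelled by replicate number. The bars give mean ± SD of 5 libraries, the vertical axes start at 0, and the groups overlap for all 9 genes.

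Trpv1, the heat and capsaicin channel of nociceptors, lies on the plus strand of chromosome 11 from 73234292 to 73261242 (GRCm38). It had 119, 193, 161, 153 and 125 CPM in Kif2a_cKO 1 to 5, against 127, 170.4, 109, 184 and 152 CPM in controls 1 to 5. Both groups spanned nearly the same range, with Kif2a_cKO 2 the highest library and control 3 the lowest. Its mean was 150.1 ± 29.7 CPM in Kif2a_cKO and 148 ± 30.8 CPM among controls (SD over 5 libraries each). On the log2 scale the difference was 0.018 (SE 0.160, edgeR adjusted p = 0.995). The 95% interval of the difference ran from 20.4% lower (-20.4%) to 28.9% higher in Kif2a_cKO. Without controls 1, 3 and 5 the value was -0.24 (SE 0.167, edgeR adjusted p = 0.991), and it was -0.090 without control 3 alone. It was also below 0 without Kif2a_cKO 2 (-0.084), without control 1 (-0.033) and without Kif2a_cKO 3 (-0.021). With any other single library left out it stayed above 0, so its sign turned on single libraries of both groups.

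Trpa1, the irritant channel that is found in a subset of nociceptors, lies on chromosome 1, minus strand, at 14872648 to 14918862. It had 53.7, 86.3, 62.3, 103 and 79.7 CPM in Kif2a_cKO, against 79.3, 65.4, 51.7, 82.7 and 52.3 CPM in controls. Libraries of each group lay at both ends, and Kif2a_cKO 4 was the highest of the 10. The log2 fold change of 0.22 (SE 0.189, edgeR adjusted p = 0.846) had an interval from -12.7% to 55.2%, the widest upper bound of the 9 channels. Leaving out single libraries moved it between 0.088 without Kif2a_cKO 4 and 0.32 without Kif2a_cKO 1, and it was 0.056 without controls 1, 3 and 5, with no call.

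Trpm8, the cold and menthol channel, lies on the plus strand of chromosome 1 from 88277661 to 88389293. Its level was 23.1, 32.7, 21.8, 26.2 and 24.8 CPM in Kif2a_cKO, against 21.9, 39.6, 15.4, 27.996 and 21.9 CPM in controls. The controls held both the highest library, control 2, and the lowest, control 3, which differed 2.58-fold. The fitted log2 difference was 0.023 (SE 0.217, edgeR adjusted p = 0.995), with an interval from -27.1% to 41.5%. Without controls 1, 3 and 5 the value was -0.40 (edgeR adjusted p = 0.991), a comparison with the 2 controls that had the highest Trpm8 of their group. Without control 2 it was 0.23, without control 3 it was -0.13 and without Kif2a_cKO 2 it was -0.072, so its sign turned on single libraries.

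Trpm3, a heat channel that also opens to pregnenolone sulfate, had the lowest p of the 9. The gene spans 856365 bases on the plus strand of chromosome 19, from 22139046 to 22995410. Its level was 48.2, 44.999, 48.2, 51.3 and 51.6 CPM in Kif2a_cKO, against 51.2, 52.3, 73.1, 55.7 and 59.2 CPM in controls. The groups overlapped only through control 1, which lay below Kif2a_cKO 4 and 5, and control 3 stood highest. Group means were 48.9 ± 2.70 CPM in Kif2a_cKO and 58.3 ± 8.84 CPM among controls (SD over 5 libraries each). This is a log2 fold change of -0.25 (SE 0.0936), with an unadjusted p of 0.0176 and an adjusted p of 0.703 in edgeR. Of the tested genes, 6.98% had a p below 0.05 before adjustment, and Trpm3 ranked at place 408. Its interval ran from -27.2% to -3.56%. An exact two-sided permutation test of log2 CPM gave p = 0.0238, where 0.00794 is the smallest that 5 libraries against 5 allow, and this p is not adjusted for the 9 members tested. DESeq2 gave an adjusted p of 0.438 and limma-voom one of 0.704. In the authors' deposited table its log2 fold change is -0.26, with a false discovery rate of 0.386.

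Trpm3 was highest in the control libraries with the most spinal cord transcripts, control 3 with 73.1 CPM and control 5 with 59.2 CPM, while control 1 had 51.2 CPM. Over the 17 tested spinal cord markers the summed level was 378 to 673 CPM in Kif2a_cKO and 398 to 3076 CPM in controls, and 16 of 17 had a log2 fold change below 0. Without control 3 the log2 fold change of Trpm3 was -0.18 (SE 0.0687, edgeR adjusted p = 0.984). With controls 1, 3 and 5 left out it was -0.14 (SE 0.0875, adjusted p = 0.991). In that comparison all 5 Kif2a_cKO libraries, at most 51.6 CPM, lay below controls 2 and 4, at 52.3 and 55.7 CPM. With so few controls groups separate more easily, and the share of all genes that did so was not computed. With the mean of the spinal cord markers as a covariate it was -0.18 (SE 0.0810, adjusted p = 0.917). Satellite glia markers were highest in the same libraries, with a mean log2 CPM of 7.499 to 7.75 in Kif2a_cKO, and of 7.87, 8.52 and 7.95 in controls 1, 3 and 5 against 7.53 and 7.49 in controls 2 and 4. The part of either tissue in the Trpm3 difference beyond these values was not tested.

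**Figure D2:**
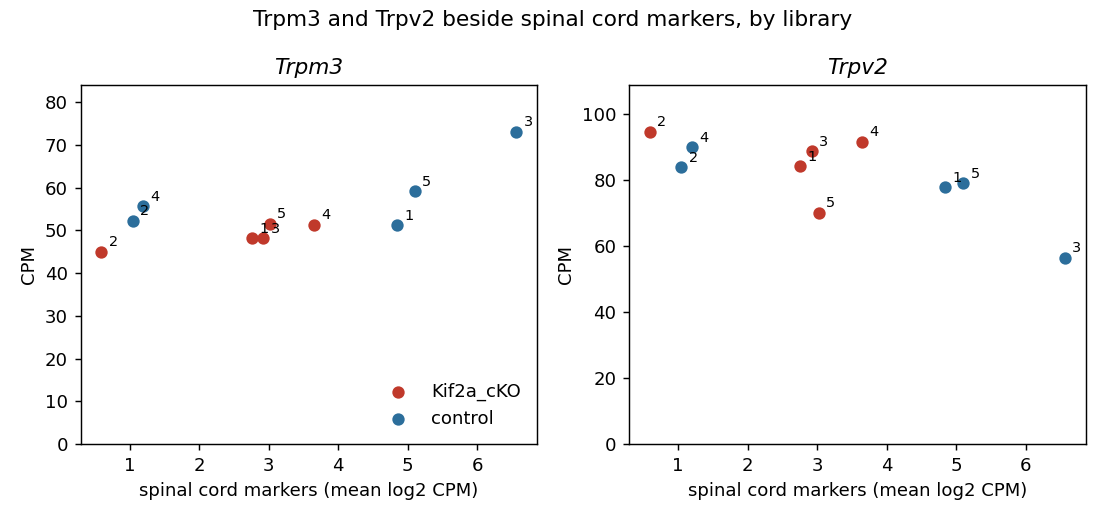
CPM of Trpm3 and Trpv2 against the mean log2 CPM of 17 spinal cord markers, 1 point per library, labelled by replicate number. Control 3, with the highest marker level at 6.56, has the highest Trpm3 at 73.1 CPM and the lowest Trpv2 at 56.6 CPM.

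Trpv2, related to Trpv1 and found in larger sensory neurons and macrophages among other cells, lies on the plus strand of chromosome 11 from 62574486 to 62600515. It had 84.4, 94.7, 88.9, 91.7 and 70.2 CPM in Kif2a_cKO, against 78.0, 84.0, 56.6, 90.0 and 79.2 CPM in controls. In Kif2a_cKO 4 of the 5 libraries lay close together and replicate 5 was low, and among the controls replicate 3 was low. Trpv2 had a log2 fold change of 0.15 (SE 0.118, edgeR adjusted p = 0.819), with an interval from -7.01% to 32.4%. Without control 3 it was 0.040 and without controls 1, 3 and 5 it was -0.017 (edgeR adjusted p of 0.992). Macrophage markers had a mean log2 CPM of 3.54 to 4.06 in Kif2a_cKO and of 3.56 to 4.22 in controls. They were highest in control 3 and Kif2a_cKO 5, the 2 libraries in which Trpv2 was lowest. The same 2 libraries had the lowest mean log2 CPM of pan-neuronal markers, 9.27 in control 3 and 9.50 in Kif2a_cKO 5. The part of either cell type in the Trpv2 values was not tested.

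Trpm2, opened by ADP-ribose and oxidants and linked to warmth sensing in mouse sensory neurons, lies on chromosome 10, minus strand, at 77907722 to 77970563. It had 27.9, 33.9, 26.8, 31.1 and 19.7 CPM in Kif2a_cKO, against 29.8, 32.4, 24.5, 32.96 and 26.7 CPM in controls. Kif2a_cKO 5 was the lowest library and Kif2a_cKO 2 the highest, so all controls lay inside the Kif2a_cKO range. For Trpm2 the log2 fold change was -0.066 (SE 0.132, adjusted p of 0.960 in edgeR), and it was positive, 0.024, without Kif2a_cKO 5. It was further below 0, at -0.14, without Kif2a_cKO 2 or without control 3. Without controls 1, 3 and 5 it was -0.23 (SE 0.171, edgeR adjusted p = 0.991), scaled to pan-neuronal markers -0.20 and with the spinal cord covariate -0.15, with no call.

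Trpm4 passes monovalent cations when calcium rises inside the cell and lies on chromosome 7, minus strand, at 45302632 to 45333780. It had 21.9, 28.5, 22.5, 26.3 and 19.3 CPM in Kif2a_cKO, against 23.8, 30.9, 17.4, 27.7 and 24.2 CPM in controls. Here the controls spanned the wider range and enclosed every Kif2a_cKO library. Its log2 fold change was -0.062 (SE 0.145, adjusted p of 0.969 in edgeR), and -0.31 without controls 1, 3 and 5.

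Trpm7 and Trpc1 varied least between libraries. Trpm7, a channel joined to a kinase that passes magnesium and is used by most cells, lies on chromosome 2, minus strand, at 126791565 to 126876230. It had 40.7, 43.1, 37.7, 41.8 and 46.0 CPM in Kif2a_cKO, against 42.2, 43.8, 40.4, 44.4 and 45.7 CPM in controls. Its log2 fold change of -0.049 (SE 0.0667, edgeR adjusted p = 0.931) had an interval from -12.5% to 6.85%, the narrowest of the 9 channels. It lay between -0.025 without Kif2a_cKO 3 and -0.097 without Kif2a_cKO 5, and was -0.091 without control 3, -0.078 without controls 1, 3 and 5 and -0.17 scaled to pan-neuronal markers. Trpc1, a canonical TRP subunit that assembles with other TRP channels, lies on chromosome 9, minus strand, at 95705082 to 95750375. It had 25.6, 24.4, 21.5, 24.4 and 22.8 CPM in Kif2a_cKO, against 21.1, 22.7, 19.9, 23.1 and 23.9 CPM in controls. The log2 fold change of Trpc1 was 0.10 (SE 0.0751, edgeR adjusted p = 0.805), with an interval from -4.11% to 20.1%. Without control 3 it was 0.049, without controls 1, 3 and 5 it was 0.052, and scaled to pan-neuronal markers it was -0.024. For these genes the highest library exceeded the lowest 1.22-fold and 1.29-fold, against 1.62-fold to 2.58-fold for the other 7 channels.

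**Figure D3:**
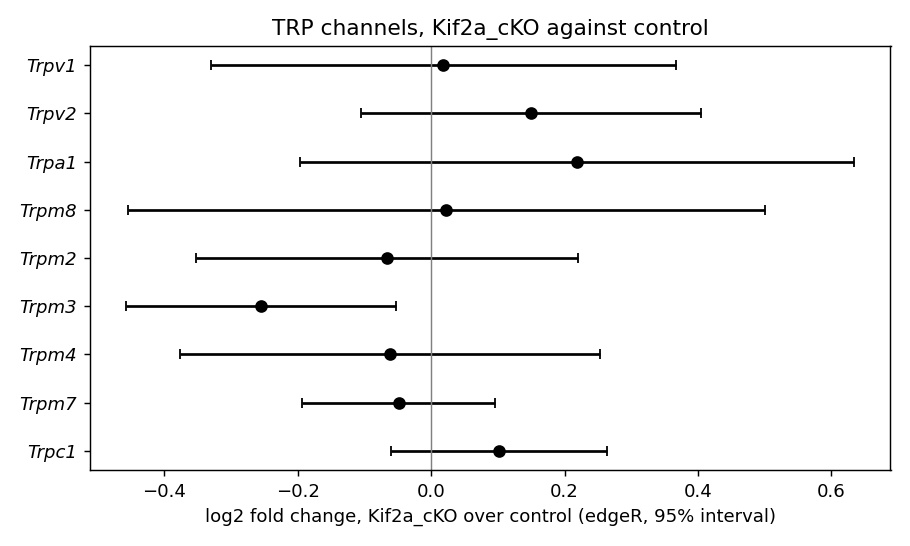
Log2 fold change of each channel, Kif2a_cKO over control, with its 95% interval from edgeR. Only the unadjusted interval of Trpm3 lies wholly below 0, and its adjusted p was 0.703.

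Levels were compared between channels as CPM per kilobase of annotated exon. Trpv1 was the most abundant, with 40.8 ± 8.08 in Kif2a_cKO, against 40.3 ± 8.38 in controls (SD over 5 libraries each). Trpv2 had 19.2 ± 2.14 in Kif2a_cKO and 17.3 ± 2.82 in controls, and Trpa1 had 18.1 ± 4.59 in Kif2a_cKO and 15.6 ± 3.41 in controls. Trpv1 exceeded Trpv2 by 2.22-fold on average and in 10 of 10 libraries, whereas Trpv2 exceeded Trpa1 in 7 of 10 and these neighbours overlapped. Trpm8 followed with 5.43 ± 0.900 in Kif2a_cKO and 5.36 ± 1.93 in controls, below Trpa1 in every library. Trpm7 had 3.70 ± 0.272 in Kif2a_cKO and 3.83 ± 0.183 in controls, and overlapped with Trpm8. Trpc1 lay below Trpm7 in 10 of 10 libraries. The lowest 3, Trpm2, Trpm4 and Trpm3, had means from 1.9997 to 2.24 in Kif2a_cKO and from 2.29 to 2.39 in controls and overlapped with each other. The annotated exons of Trpm3 add up to 24.437 kb over many isoforms. With the length of the longest transcript, a choice made after seeing the data, the first 5 kept their order, Trpm4 stood at place 6, and Trpm3 had 3.97 in Kif2a_cKO and 4.74 in controls.

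**Figure D4:**
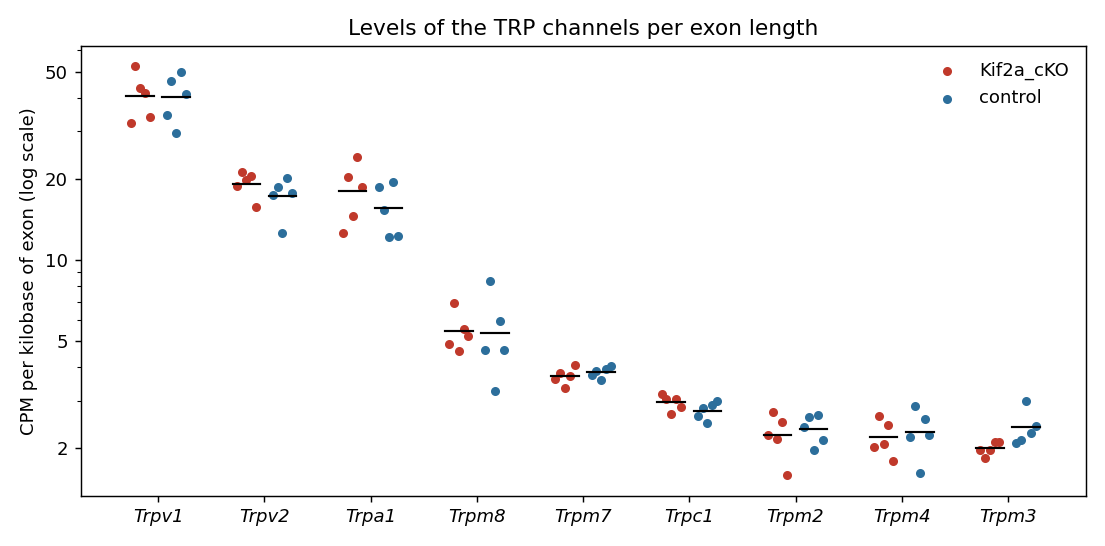
CPM per kilobase of exon for each channel on a log axis, 1 point per library, with Kif2a_cKO left of control and a line at each group mean. Trpv1 lies highest at 40.8 in Kif2a_cKO and 40.3 in controls, and Trpm2, Trpm4 and Trpm3 lie lowest.

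Ratios between channels within a library do not depend on how libraries are scaled, and none of the 3 examined passed 0.05 between the groups in an exact two-sided permutation test. The log2 ratio of Trpa1 to Trpv1 counts was -0.98 ± 0.347 in Kif2a_cKO, against -1.16 ± 0.328 in controls (SD, n = 5 each, exact p = 0.373, adjusted over 3 ratios 0.619). Its difference of 0.18 was 0.083 without Kif2a_cKO 4, 0.092 without control 5 and 0.10 without Kif2a_cKO 5, and it was 0.28 without Kif2a_cKO 3 and 0.31 without control 1. For Trpm8 to Trpv1 the log2 ratio was -2.54 ± 0.218 in Kif2a_cKO and -2.59 ± 0.296 in controls (exact p = 0.754, adjusted 0.754). For Trpm3 to Trpv1 the ratio was -1.60 ± 0.339 in Kif2a_cKO and -1.33 ± 0.466 in controls (exact p = 0.413, adjusted 0.619). The last difference, -0.27, was -0.076 without control 3, in which the ratio stood highest at -0.57.

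The channels also differed in their course over the 10 libraries. Likeness was the root-mean-square difference of log2 CPM after each gene was scaled to mean 0 and SD 1, so smaller is more alike. Trpm8 and Trpm4 were closest (0.487), followed by Trpv1 and Trpm4 (0.510) and by Trpm2 and Trpm4 (0.515). Trpv2 and Trpm3 were farthest apart (1.80). Control 3 was the lowest library for 6 of the 9 channels (Trpv1, Trpv2, Trpa1, Trpm8, Trpm4 and Trpc1) and the highest for Trpm3. All genes of a library share its RNA, depth and mix of tissue, so these courses are a description.

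When libraries were scaled so that the pan-neuronal markers stood level, the median of all genes was shifted by -0.13 on the log2 scale. So scaled, the log2 fold change was -0.40 for Trpm3, 0.10 for Trpa1 and 0.034 for Trpv2, and no channel was called. Taken relative to the median of all genes, which undoes most of this scaling, they were at -0.28, 0.23 and 0.16. The values under TMM scaling were -0.25, 0.22 and 0.15. The standard error became smaller for 6 of 9 channels (Trpv1, Trpv2, Trpa1, Trpm8, Trpm2 and Trpm4), for Trpv2 0.0806 against 0.118. It became larger for Trpm3 (0.168 against 0.0936), Trpm7 (0.114 against 0.0667) and Trpc1 (0.107 against 0.0751).

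Among all genes with a mean of at least 10 CPM, those closest to Trpv1 by the same measure were Plxna3 (0.273), Gpr35 (0.300) and Pik3cd (0.315). For Trpv2 they were Cep120 (0.207), Slc7a1 (0.253) and Usp5 (0.260), and for Trpa1, less close, Rspry1 (0.461), Mtfmt (0.514) and Slc25a46 (0.517). Trpm8 was closest to Slc17a5 (0.192), Cd2ap (0.307) and Tmem120b (0.309). Trpm2 had the closest partner of all, Cabin1 (0.147), then Lrfn3 (0.185) and Slc39a3 (0.190). Trpm4 was closest to Rasgrp1 (0.202), Alas1 (0.262) and Gpd1l (0.264), Trpm7 to Taf1 (0.337), Plk2 (0.426) and Smc6 (0.464), and Trpc1 to Tbpl1 (0.185), Prokr1 (0.293) and Zdhhc15 (0.343). Trpm3 was closest to Hlf (0.284), Rmdn3 (0.320) and Gjb6 (0.325). Gjb6, a gap junction gene of astrocytes, had a log2 fold change of -1.09 and Hlf one of -0.55.

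Other members of the TRP family gave the same picture of no calls. Of 19 listed, 16 were among the genes analysed and 13 had enough counts to be tested, with Trpm1, Trpm5 and Mcoln2 below the filter. edgeR called 0 of 13 (DESeq2 and limma-voom likewise 0), against 0.0172% of all tested genes, 4 had a log2 fold change above 0 and 9 below, and the median was -0.12. Among the most abundant in CPM were Mcoln1, a lysosomal channel, with a log2 fold change of -0.017 (SE 0.0954), and Pkd2, with -0.17 (SE 0.163). At an unadjusted p under 0.05 there were 2 of 13, Pkd2l1 and Trpv6, both lower, where 4.01% of all genes lay. Pkd2l1, a channel of spinal cord neurons that contact the cerebrospinal fluid, had 0.558, 0.104, 0.939, 0.249 and 0.135 CPM in Kif2a_cKO, against 2.85, 0.502, 8.70, 0.0570 and 3.95 CPM in controls. Its 3 high libraries were controls 1, 3 and 5 (log2 fold change -3.06, SE 1.003, edgeR adjusted p = 0.703). Trpv6, a calcium channel known from epithelia, was near 1 CPM, at 0.693 ± 0.230 CPM in Kif2a_cKO libraries and 1.08 ± 0.247 CPM in control libraries (SD, n = 5 each, edgeR adjusted p = 0.703). Trpv4, an osmosensitive channel, was at 3.84 ± 0.964 CPM in Kif2a_cKO libraries and 3.13 ± 0.577 CPM in control libraries (SD, n = 5 each, edgeR adjusted p = 0.783).

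Of 36 genes listed as regulators of TRP channels, all were tested and edgeR called 0 (DESeq2 and limma-voom likewise 0). Of these 23 had a log2 fold change above 0 and 13 below, with a median of 0.019, and 2 had an unadjusted p under 0.05, both higher, where 2.97% of all genes lay. S100a10, the partner of annexin A2 that takes part in the trafficking of membrane channels, had 556, 581, 613, 621 and 713 CPM in Kif2a_cKO, against 468, 542, 482, 531 and 465 CPM in controls. Each Kif2a_cKO library lay above each control, and the log2 fold change was 0.31 (SE 0.0857, adjusted p = 0.703 in edgeR and 0.0648 in DESeq2). Cdk5, a neuronal kinase that phosphorylates Trpv1 in rodents, had 153, 147, 155, 147 and 149.6 CPM in Kif2a_cKO, against 139.9, 137, 130.2, 139 and 143 CPM in controls. These groups did not overlap either, as in 1.17% of all tested genes (log2 fold change 0.13, SE 0.0578, edgeR adjusted p = 0.703). Among the most abundant regulators were Calm2 and Calm3, which encode calmodulin, a calcium sensor that binds several TRP channels. The log2 fold change of Calm2 was 0.18 (SE 0.0868), and that of Calm3 was 0.049 (SE 0.0841).

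Markers of the neurons that hold these channels were likewise uncalled in edgeR. Peptidergic nociceptor markers, found with Trpv1, had a log2 fold change above 0 in 8 of 8, where 52.1% of all tested genes lay, with a median of 0.18. Of these 8, 3 had an unadjusted p under 0.05, against 2.97% of all tested genes on the higher side. Their mean log2 CPM was 6.68 to 6.996 in Kif2a_cKO and 6.39 to 6.82 in controls, which overlapped. Non-peptidergic markers had 2 above 0 and 7 below, with a median of -0.085, and cold-sensing markers, which include Trpm8, 3 above and 3 below, with a median of -0.014. Pan-neuronal markers had 14 of 15 above 0, 1 of them at an unadjusted p under 0.05, and a median of 0.15. Markers of myelinating Schwann cells lay the other way, with 10 of 10 below 0, a median of -0.32 and 6 at an unadjusted p under 0.05, where 4.01% of all genes lay on the lower side. edgeR called none of them, and the lowest adjusted p among them was 0.0129 in DESeq2 and 0.309 in limma-voom. Their mean log2 CPM was 8.69 to 9.26 in Kif2a_cKO and 9.23 to 9.51 in controls, and their part in the channel values was not tested. The gene Mag is in both this list and the spinal cord list. The part of spinal cord tissue in these marker values was also not tested.

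**Figure D5:**
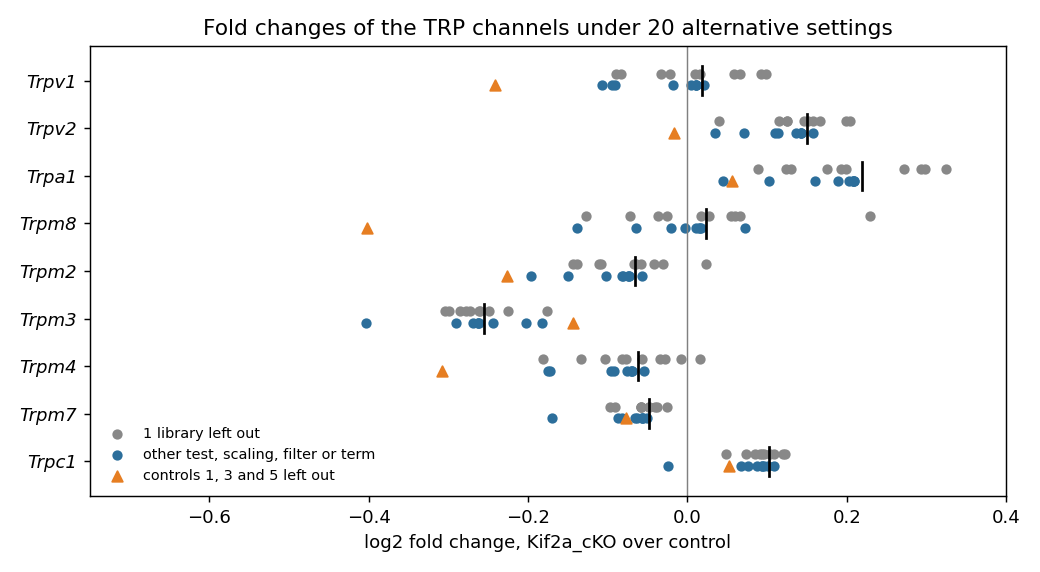
Log2 fold change of each channel, Kif2a_cKO over control, under 20 alternative settings, with grey points for 1 library left out, blue points for another test, scaling, filter or term, triangles for controls 1, 3 and 5 left out, and a black line at the value reported. Trpm3 lies below 0 and Trpa1 above 0 in all 20, whereas Trpv1 and Trpm8 change sign in 9 of 20 each.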

How the data were processed

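RNA was extracted with TRIzol and polyadenylated RNA was sequenced, per the labels' protocols. The submitters' processing notes name cutadapt, STAR, DESeq2 and mm10, without versions. The read counter, annotation and strandedness were not stated there. As deposited, the table holds raw counts for each gene symbol, and every gene has 6 or more reads in total. Beside them the authors give a normalized signal, the count over a size factor. The deposited table also holds regularized log2 values and the log2 fold change, p-value and false discovery rate of the authors' comparison. Tests used the raw counts alone.

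The test was that of edgeR 4.0.16 under R 4.3.3: filterByExpr (minimum count 10, minimum total 15) kept 17439 genes, libraries were scaled by TMM, and a robust quasi-likelihood F test was run on the group. The log2 CPM prior count was 2, and ratios used a pseudocount of 0.5. DESeq2 1.42.0 and limma 3.58.1 were alternatives. What is named limma-voom here is voom with sample quality weights, in which libraries can weigh unequally. The edgeR fit was run on simulated counts with known fold changes, with a requirement on the fitted fold changes and none on the calls. Replicate pairs of a group differed by more than sampling noise (lowest chi-square 9.62 per gene), and each library was entered once. That check cannot show whether libraries came from separate animals. Exon lengths and positions are from GENCODE M21 (GRCm38).

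Although the rule for the members uses gene symbols only, the members, lists and tests were chosen with earlier results of these data known. The named genes are the 9 members, Kif2a, Avil, then per list the called genes or the 3 most abundant and 3 of lowest p, and the 3 genes most like each member. A few genes that this rule names are not reported here. Marker lists are described by their counts of direction and median, and by levels where they stand beside a channel. The endothelial and mural (6 of 12 above 0, median 0.0046) and fibroblast and meningeal (7 of 8 below 0, median -0.15) lists are given here alone, with satellite glia at 6 of 8 below 0 (median -0.18), macrophage at 8 of 11 below 0 (median -0.051) and spinal cord at a median of -2.31.

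Without strand information, reads of antisense genes cannot be told apart from those of a member where exons of both meet. The span of 4930453O03Rik, introns included, touches exons of Trpm8. The spans of Gm27151 and C330002G04Rik, with 367 and 24 counts in all libraries, touch exons of Trpm3, which had 18296. Whether the exons of these genes meet those of the members was not examined. Rpl14-ps1, with 8305 counts against 8286 for Trpm4, lies on the other strand in an intron of Trpm4. The 2 small nucleolar RNA genes Gm22394 and Gm22871 lie in exons of Trpm2.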

Additional observations from a re-analysis of the deposited data

Results flagged for a closer look

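Among 46 groups of 5 libraries examined for a library far from the others, 1 held one, and chance alone gives about 1 in 20. Calm2 had 1656 CPM in Kif2a_cKO replicate 5, with 1312 to 1396 CPM in the other 4. The gene was not called, and none of the 9 channels held such a library in either group.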

How the results depend on the processing

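No TRP channel was called under any of 20 alternatives in edgeR, DESeq2 or limma-voom, and the median log2 fold change of the 9 lay between -0.14 and 0.060. edgeR called 3 genes of all tested, DESeq2 32, and edgeR 0 with at least 1 CPM in 5 libraries (1011 at an unadjusted p under 0.05), 0 with the replicate number as a block (1499) and 0 without control replicates 1, 3 and 5 (604). Leaving out 1 library in turn gave between 0 and 3 called genes in edgeR, with 0 without Kif2a_cKO replicate 1, 2, 4 or 5 or control replicate 1, 4 or 5, and 1 without control replicate 3 (801 to 1527 at an unadjusted p under 0.05). Trpa1, Trpm3 and Trpm7 kept their sign under all 20. The log2 fold change of Trpv1 was -0.090 in limma-voom, -0.018 with library totals alone, -0.095 scaled to pan-neuronal markers, -0.11 with the spinal cord covariate and -0.24 without control replicates 1, 3 and 5, and ran from -0.090 to 0.10 with 1 library left out. That of Trpm8 was, in the same order, -0.020, -0.0032, -0.065, -0.14 and -0.40, and ran from -0.13 to 0.23. Trpc1 was at -0.024 scaled to pan-neuronal markers and Trpv2 at -0.017 without control replicates 1, 3 and 5. With 1 library left out Trpm2 ran from -0.14 to 0.024 and Trpm4 from -0.18 to 0.015. The log2 ratio of Trpm8 to Trpv1 was -0.13 and that of Trpm3 to Trpv1 0.12 without control replicates 1, 3 and 5, and the first ran from -0.0023 to 0.18 with 1 library left out. The cause of these changes was not tested. As a replicate block, the shared numbers gave Trpm3 a log2 fold change of -0.24 (edgeR adjusted p = 0.466). For the ratios the block was a test that flipped the sign of the difference within each same-numbered pair. With 5 pairs the smallest p of that test lies above 0.05, so it could not call a ratio. Same-numbered libraries deviated together in 4 of 5 pairs (r from 0.14 to 0.37) and not in the pair numbered 4 (r = -0.15), so the numbers were not taken to pair the samples. Kif2a_cKO libraries 1, 2, 3 and 5 correlated best with the control of their own number. Trpm3 was lower in Kif2a_cKO within every same-numbered pair, and the share of all genes with the same direction in every pair was not computed. The numbers that open the sample titles are consecutive within each such pair, but no label says what they mark. With the block the SE was smaller for every channel, for Trpm8 0.103 against 0.217 and for Trpm3 0.0776 against 0.0936. In the fit without this block, the 95% interval reached past 20% in at least 1 direction for every channel but Trpm7. This limits what 5 libraries a group can resolve in that fit.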
